A study of Mus musculus with 20 samples.

Results

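The isocitrate dehydrogenases were followed through bulk mouse bone marrow as 5 genes (Idh1, Idh2, Idh3a, Idh3b and Idh3g) of the 37620 genes counted, and as the 145 of 554616 counted splice junctions that lie in those genes. Genes were taken by symbol. A 12 bp cassette exon of Idh3g (an exon that a transcript can include or skip) was taken because earlier results of the same junction counts showed it to differ between the groups, so its values are given as a description with no test. The 20 samples were recipient mice, 5 for each pairing of genotype, U2AF1(WT) or U2AF1(S34F), with treatment, vehicle or sudemycin D6. They are called WT and S34F mice. In all groups the recipients were irradiated wild-type (C57BL/6 x 129S4Sv/Jae)F1 animals that carried engrafted marrow pooled from several donors. That marrow bore a U2AF1 transgene switched on through rtTA, a doxycycline-dependent activator, by chow with 625 ppm doxycycline for 7 days. The WT mice thus carried an induced wild-type transgene and were not untreated controls, and marrow of a recipient can hold remaining host cells. Either agent was infused intravenously during the last 5 of the 7 days. Ages were given as ranges for donors and recipients and not by group.

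Isocitrate dehydrogenases convert isocitrate to alpha-ketoglutarate. IDH3 is the mitochondrial NAD-dependent enzyme of the citric acid cycle and is built from the catalytic alpha subunit (Idh3a), the beta subunit (Idh3b) and the regulatory gamma subunit (Idh3g), whereas IDH1 in the cytosol and peroxisomes and IDH2 in mitochondria are separate NADP-dependent enzymes whose human genes are recurrently mutated in myeloid leukaemia. U2AF1 is the small subunit of the factor that recognises the AG at the end of an intron, the S34F substitution is known to shift its preference for the base just before that AG, and sudemycin D6 binds the SF3B1 subunit of the spliceosome at the branch site.

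An exon joins the one before it at its 3′ splice site, and the sites on which the splicing results turn are given here. All are on the minus strand of build NCBIM37 (mm9) and run 5′ to 3′, with intron in lower case and exon in capitals. The 12 bp exon (chrX:71027637-71027648) is exon 3 of 13 of transcript Idh3g-001, is coding, adds 4 codons without shifting the frame, and is absent from the other annotated Idh3g transcripts. The intron before it has 365 bp and the intron after it 194 bp. It is shown with 30 upstream and 20 downstream intron bases at chrX:71027617-71027678.
Idh3g 12 bp exon: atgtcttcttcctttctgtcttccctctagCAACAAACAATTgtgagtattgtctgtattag

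Its 3′ splice site, with 20 intron and 4 exon bases (chrX:71027645-71027668), is shown beside that of the exon after it (chrX:71027439-71027462), the site used in both isoforms.
Idh3g 12 bp exon 3′ site: cctttctgtcttccctctagCAAC
Idh3g next exon 3′ site: caccctctcccttcttccagCCTC
The base before the AG is T at the 12 bp exon and C at the next exon. Both have 17 pyrimidines in the last 20 intron bases.

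The last exon of Idh3b has a near acceptor (chr2:130105459-130105482) and a far one (chr2:130105170-130105193), and they are shown because their relative use differed between genotypes.
Idh3b near acceptor: tttgctgttggtggctgtagGTAC
Idh3b far acceptor: atgataactttttcccacagGTTC
Here T precedes the AG of the near acceptor and C that of the far one, with 11 and 12 pyrimidines in the last 20 intron bases. These letters are a description and say nothing of which factor acted there.

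Total counts on genes were 41145892 to 62138138 per mouse, and counts on junctions were 34384214 to 64813149. Reads on members' junctions numbered 528906, of which 99.794% lay on the 79 junctions with both ends annotated. Genotype and sex cannot be told apart: Xist had 39145 to 78640 counts in the WT mice and 1 to 8 in the S34F mice, and 4 Y-linked genes had 0 to 4 counts together in the former and 10270 to 15034 in the latter. Markers of neutrophils, the abundant cell of marrow, summed to 60382 to 68516 CPM (counts scaled to a common library size by TMM) in vehicle-treated WT mice, 56054 to 97563 in sudemycin-treated WT mice, 82534 to 134707 in vehicle-treated S34F mice and 70811 to 116444 in sudemycin-treated S34F mice, so the vehicle-treated genotypes did not overlap. The lists of the other lineages were detected at lower sums, with no marker at 0 in every mouse: erythroid 183 to 796 CPM (7 of 8 markers matched), monocyte 955 to 2210 CPM (6 of 7 matched), B cell 14.4 to 157 CPM, megakaryocyte 22.5 to 64.0 CPM, T and NK cell 46.4 to 72.9 CPM and stroma 53.8 to 185 CPM. Monocyte sums did not overlap between the genotypes under sudemycin (1045 to 1463 CPM in WT and 1471 to 2210 in S34F mice). The single markers were mixed. Of 6 tested, 3 rose and 1 fell in S34F against WT mice under sudemycin, where 36.8% of all genes were called. Between genotypes under vehicle 0 rose and 3 fell, where 39.5% of all genes were called. Of the 7 B cell markers, 4 fell in S34F against WT mice under sudemycin (median log2 fold change -0.99). In that comparison 36.8% of all genes were called and 17.2% were called higher. Under vehicle the median was nearly as low (-0.97) but 0 of the 7 were called, where 39.5% of all genes were called. With both factors, in sudemycin-treated S34F against vehicle-treated WT mice, 7 fell (median -1.63), beside 50.2% of all genes called. In S34F against WT mice under sudemycin, 3 of 7 erythroid and 2 of 5 megakaryocyte markers fell. In the same comparison 2 of 5 T and NK cell and 1 of 4 stroma markers fell, beside 36.8% of all genes called. In these lists 0 rose. With both factors 2 of 7 erythroid, 3 of 5 megakaryocyte, 3 of 5 T and NK cell and 2 of 4 stroma markers fell. There, 1 megakaryocyte and 2 T and NK cell markers rose. Of 8 neutrophil markers, 4 rose in S34F against WT mice under vehicle (median 0.31), where 19.7% of all genes were called higher. Between genotypes under sudemycin 3 rose (17.2% called higher), and 4 rose with both factors (25.1%). Under vehicle 1 megakaryocyte, 2 T and NK cell and 1 stroma marker rose in S34F mice. In these 3 lists 1, 1 and 2 markers fell, and 0 of 7 erythroid markers were called. The part of these lineages in the results on the members was not tested. In bulk marrow, fewer cells of a type and less RNA per cell cannot be told apart.

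The 12 bp exon of Idh3g was included most in vehicle-treated WT marrow and least in sudemycin-treated S34F marrow. Inclusion (Ψ) is the mean of the reads on both inclusion junctions as a share of that mean plus the reads on the skipping junction. In the 5 vehicle-treated WT mice Ψ was 77.1, 75.4, 77.0, 74.5 and 76.6%. Vehicle-treated S34F mice had 60.9, 66.6, 56.7, 58.9 and 54.3%. All 5 lay below every vehicle-treated WT mouse. In sudemycin-treated WT mice Ψ was 60.8, 46.7, 48.4, 58.8 and 45.7%, and in sudemycin-treated S34F mice it was 46.7, 52.7, 38.8, 39.4 and 46.3%. The WT mice on drug formed a pair near 60% and a trio below 50%, and the latter were within the range of the S34F mice on drug.

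**Figure D1:**
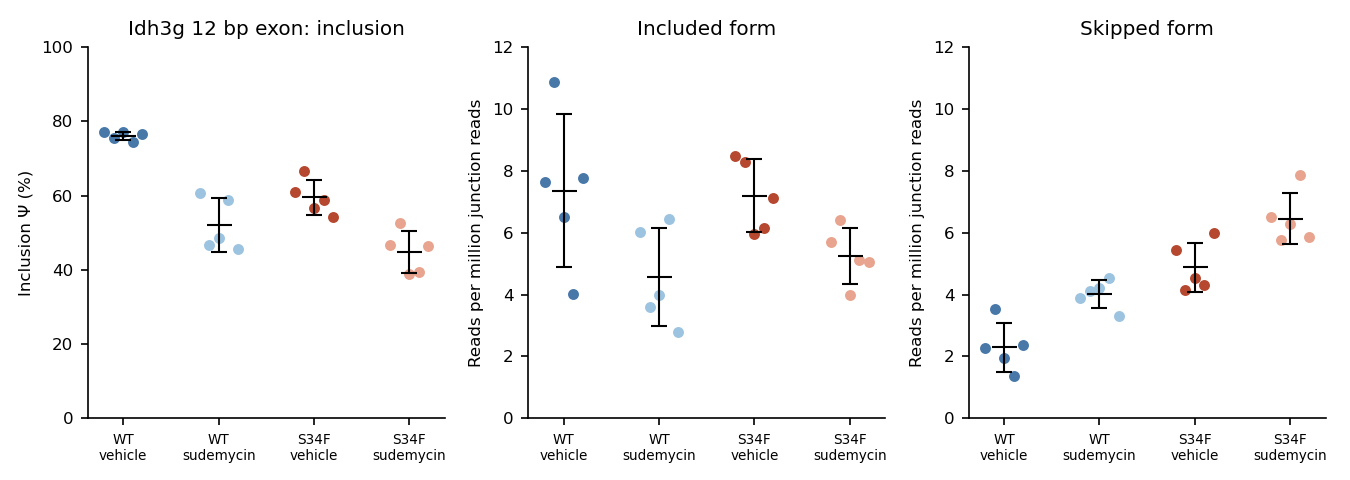
Idh3g 12 bp exon by group: inclusion Ψ in % (left), and library-scaled junction reads (CPM of all junction reads) for the included form (middle, mean of the 2 inclusion junctions) and the skipped form (right). Points are mice (5 per group) and bars the mean ± SD. Ψ in the vehicle-treated WT mice is above that of all other mice. The mean of the skipped form is lowest in that group, whose range overlaps that of sudemycin-treated WT mice.

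Group means were 76.1 ± 1.10% (SD, n = 5) for vehicle-treated WT, 59.5 ± 4.66% for vehicle-treated S34F, 52.1 ± 7.15% for sudemycin-treated WT and 44.8 ± 5.77% for sudemycin-treated S34F mice. The spread was thus smallest where inclusion was highest. Ψ in S34F minus WT marrow was -16.7 points under vehicle (SE 2.14), with no overlap between the groups, and -7.29 points under sudemycin (SE 4.11), where the groups overlapped. Ψ under sudemycin minus vehicle was -24.1 points in WT (SE 3.23) and -14.7 points in S34F mice (SE 3.32), without overlap in either. Sudemycin-treated S34F mice differed from vehicle-treated WT mice by -31.4 points (SE 2.63), a smaller difference than the -40.7 points that the genotype difference under vehicle and the drug difference in WT make when added. The drug difference in S34F mice was smaller by 9.38 points, and this was not tested because the exon was chosen from these values.

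Read numbers behind these shares were 394 to 1386 per mouse on the 3 junctions together. Over the 20 mice, 6776 reads joined the exon to the one before it, 6052 joined it to the one after it and 4743 skipped it, while 52 skipped it together with the next exon. A read that crosses all of a 12 bp exon can be counted on both inclusion junctions. The reads are not independent molecules, and no interval for single mice is given.

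**Figure D2:**
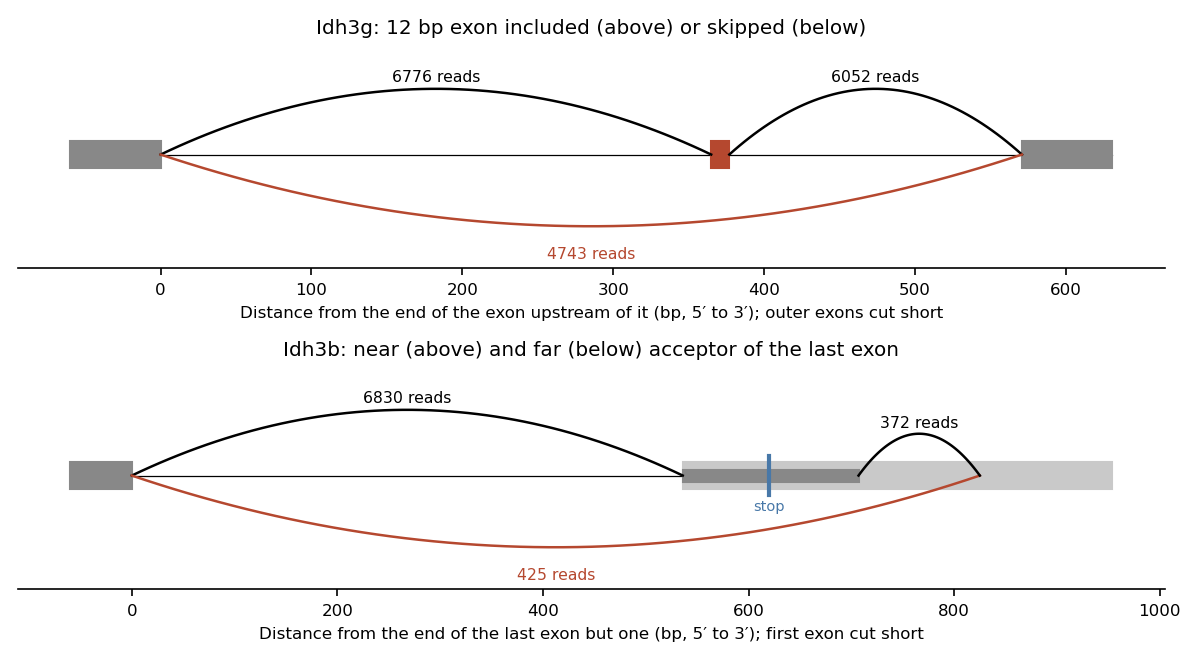
Junction reads over the 20 mice, drawn to scale in bp from the upstream exon's end. Top, the Idh3g 12 bp exon is joined by 6776 and 6052 reads and skipped by 4743; bottom, in the last exon of Idh3b (light grey, up to the second annotated donor darker, stop codon in blue) 6830 reads use the near acceptor, 425 the far one and 372 the short intron inside the exon.

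The 2 isoforms were also set against the depth of each library. On this scale (CPM of all junction reads in the mouse) the skipped form of Idh3g had 2.30 ± 0.797 in vehicle-treated WT (SD, n = 5), 4.01 ± 0.457 in sudemycin-treated WT, 4.89 ± 0.793 in vehicle-treated S34F and 6.46 ± 0.838 in sudemycin-treated S34F mice. That is 2.13 times as much in S34F as in WT mice under vehicle, 1.61 times as much between genotypes under sudemycin and 2.81 times as much with both, each without overlap. Under sudemycin it was 1.74 times the vehicle level in WT and 1.32 times in S34F mice, with overlapping ranges. The included form had 7.36 ± 2.48, 4.56 ± 1.59, 7.20 ± 1.17 and 5.26 ± 0.899 on the same scale and in the same order of groups. Vehicle-treated WT and S34F mice thus had close means of the included form (ratio 0.978) and were apart in the skipped form. The included form ranged from 4.01 to 10.9 in these WT mice, and its difference was -0.161 (SE 1.23), so likeness is not shown. The scale does not correct for the gene level of Idh3g, which was higher in S34F mice under vehicle (log2 fold change 0.33). Under sudemycin the included form was lower, at 0.620 of the vehicle level in WT and 0.730 in S34F mice, but with overlapping ranges. Both forms together averaged 9.66, 8.57, 12.1 and 11.7 on that scale.

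Among all cassette events tested, 762 of 25735 had a larger absolute difference in Ψ than the Idh3g exon in the genotype comparison under vehicle, 289 of 25469 in the drug comparison in WT mice, 627 of 25115 in the drug comparison in S34F mice, 2857 of 25275 in the genotype comparison under sudemycin and 165 of 25678 with both. The exon was chosen because these junction counts showed it to differ, so a high rank follows from the choice and is no test. A second first exon of Idh3g, counted by 133 reads against 12204 for the main one, took 0.223 ± 0.498% of first-exon reads in vehicle-treated WT mice, 0.954 ± 0.630% in sudemycin-treated WT, 1.34 ± 0.522% in vehicle-treated S34F and 1.49 ± 0.514% in sudemycin-treated S34F mice. These shares rest on few reads and were not tested.

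Idh3b showed the only splice event of the members that passed a test: S34F marrow skipped to a far acceptor inside the last exon more often than WT marrow. The near acceptor begins the 418 bp last exon of Idh3b-001 (chr2:130105045-130105462), which holds the stop codon at chr2:130105376-130105378. The far acceptor lies 289 bp further on, in the annotated 3′ untranslated region of Idh3b-001, and is the annotated start of the last exon of Idh3b-004, which reaches it after a 171 bp exon. Reads that jump straight to the far acceptor leave out the end of the coding sequence of Idh3b-001. The near acceptor had 6830 reads in all, the far one 425, and the short 118 bp intron inside the last exon 372.

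Far acceptor reads as a share of far and near reads were 3.14, 3.92, 0.966, 0 and 0.311% in vehicle-treated WT mice. The 0 rests on 230 reads, which allow a share of up to 1.30% (3 counts of the total, counting error only; the Wilson upper limit is 1.64%). In vehicle-treated S34F mice the shares were 8.54, 6.93, 5.85, 7.59 and 8.89%, above every vehicle-treated WT mouse. Sudemycin-treated WT mice had 3.22, 0, 0, 2.85 and 15.8%, where the zeros rest on 254 and 347 reads and by the same rule allow up to 1.18% and 0.865% (Wilson 1.49% and 1.09%). The mouse at 15.8% had 28 of 177 reads on the far acceptor (Wilson 95% interval 11.2 to 21.9%, counting error only) and stood apart from the other 4. Sudemycin-treated S34F mice had 11.3, 3.47, 10.5, 9.63 and 11.8%, so that one of them lay among the WT mice. Group means were 1.67 ± 1.76, 7.56 ± 1.23, 4.38 ± 6.57 and 9.35 ± 3.39% (SD, n = 5) in that order.

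**Figure D3:**
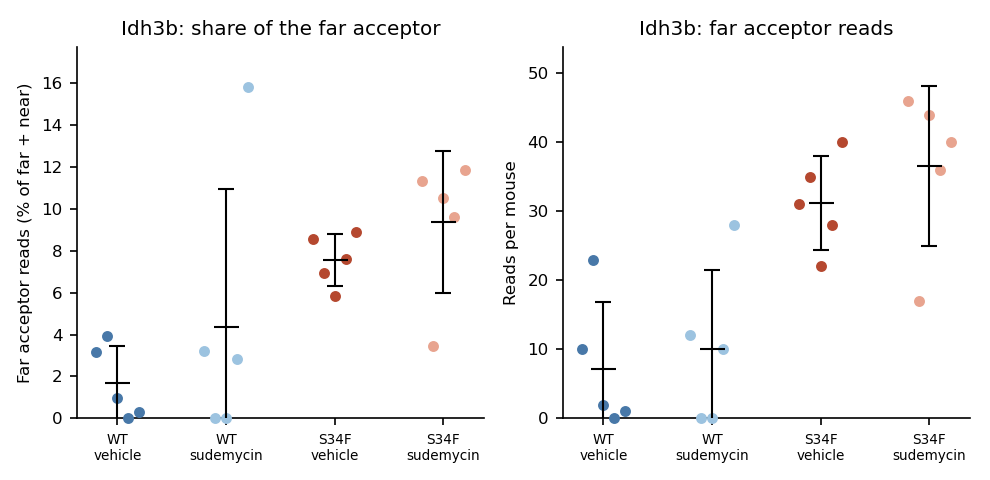
Idh3b far acceptor by group: share of far and near acceptor reads in % (left) and far acceptor reads per mouse (right). Points are mice (5 per group), bars the mean ± SD with lower ends below 0 left off; vehicle-treated S34F mice (5.85 to 8.89%) lie above vehicle-treated WT mice (0 to 3.92%), and one sudemycin-treated WT mouse reaches 15.8%.

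The event was tested as inclusion of the 171 bp exon piece (reads of the near acceptor and the short intron) against the far acceptor, in edgeR across all cassette events with Benjamini-Hochberg adjustment. An event was called at an adjusted p under 10% and a difference in Ψ over 1%. Ψ here takes the mean of the near acceptor and short intron reads, and the latter are few. Its differences are therefore larger than those in acceptor use. The far acceptor share differed, S34F minus WT, by 5.89 points under vehicle and 4.97 points under sudemycin. With both factors, against vehicle-treated WT mice, that share differed by 7.68 points. The difference in Ψ of the event, S34F minus WT, was -10.2 points under vehicle (adjusted p = 0.0271), where 4.02% of all tested cassette events were called, and -8.78 points under sudemycin (adjusted p = 0.0408, 3.79% called). With both factors, against vehicle-treated WT mice, it was -13.1 points (adjusted p = 7.41e-04, 6.99% called). Sudemycin alone gave differences of -4.33 points in WT (adjusted p = 0.759, 1.58% of events called) and -2.91 points in S34F mice (adjusted p = 0.808, 1.76% called), which did not pass, and the interaction of genotype and drug was 1.42 points (adjusted p = 0.977, 0.0162% called). The call under vehicle was lost without WT mouse 5 (adjusted p = 0.130) or S34F mouse 11 (0.103), and the call under sudemycin was lost in 6 of the 10 fits without 1 mouse and in limma on Ψ (adjusted p = 0.598). Without sudemycin-treated WT mouse 12 the difference under sudemycin was -13.5 points (adjusted p = 0.0014 in edgeR) and the drug difference in WT mice 0.351 points. The drug difference in S34F mice was -5.34 points without sudemycin-treated mouse 6 and -1.87 points without mouse 12, neither called. With a dispersion estimated by edgeR none of the 3 calls was kept (adjusted p = 0.465, 0.589 and 0.242), a setting that called 0 of all cassette events in both genotype comparisons and 29 of 25678 with both factors.

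No other splice event of the members was called. Of 31 events built from their junctions, the Idh3g exon among them, 18 besides that exon could be tested in at least 1 comparison, 9 of them cassette exons. Between 11 and 16 events were tested per comparison, and the largest absolute difference among those not called was 1.62 points under vehicle and 3.19 points under sudemycin between genotypes. An unannotated 3′ site 29 bp inside exon 6 of Idh3b, printed with the annotated one because U2AF1 acts at such sites, is an example with little use.
Idh3b exon 6 annotated site: tgatggctgtctactctcagGCGT
Idh3b exon 6 unannotated site: ggatttgtttgccaacgtagTCCA
The annotated site is at chr2:130107503-130107526 and the unannotated one at chr2:130107474-130107497. The latter took 1.27 ± 2.19% of reads in vehicle-treated WT, 2.19 ± 1.78% in vehicle-treated S34F, 2.88 ± 2.51% in sudemycin-treated WT and 2.39 ± 2.14% in sudemycin-treated S34F mice, differences within the spread.

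At the gene level, all 5 members passed the filter on low counts in every comparison. They lie at chr1:65205190-65233053 (Idh1, ENSMUSG00000025950, minus strand), chr7:87239732-87260278 (Idh2, ENSMUSG00000030541, minus), chr9:54434288-54452468 (Idh3a, ENSMUSG00000032279, plus), chr2:130105045-130110283 (Idh3b, ENSMUSG00000027406, minus) and chrX:71024302-71032236 (Idh3g, ENSMUSG00000002010, minus). Per length (RPKM, CPM per kilobase of annotated exon), the cytosolic Idh1 was the most abundant over the 20 mice at 55.5 ± 11.2 (SD), a level above 94.1% of tested genes. Idh3g followed at 27.1 ± 4.09, Idh2 at 19.3 ± 4.27, Idh3b at 16.7 ± 2.04 and Idh3a at 12.3 ± 2.48, still above 72.5% of tested genes. The mice's ranges of neighbours overlapped from Idh3g (19.2 to 32.4 RPKM) down to Idh3a (7.34 to 17.2 RPKM), whereas the lowest Idh1 value, 38.1 RPKM, was above every Idh3g value. Within IDH3, the ratio of Idh3g to Idh3a in RPKM was 2.27 ± 0.213 in vehicle-treated WT, 2.69 ± 0.305 in vehicle-treated S34F, 2.14 ± 0.937 in sudemycin-treated WT and 2.03 ± 0.318 in sudemycin-treated S34F mice.

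**Figure D4:**
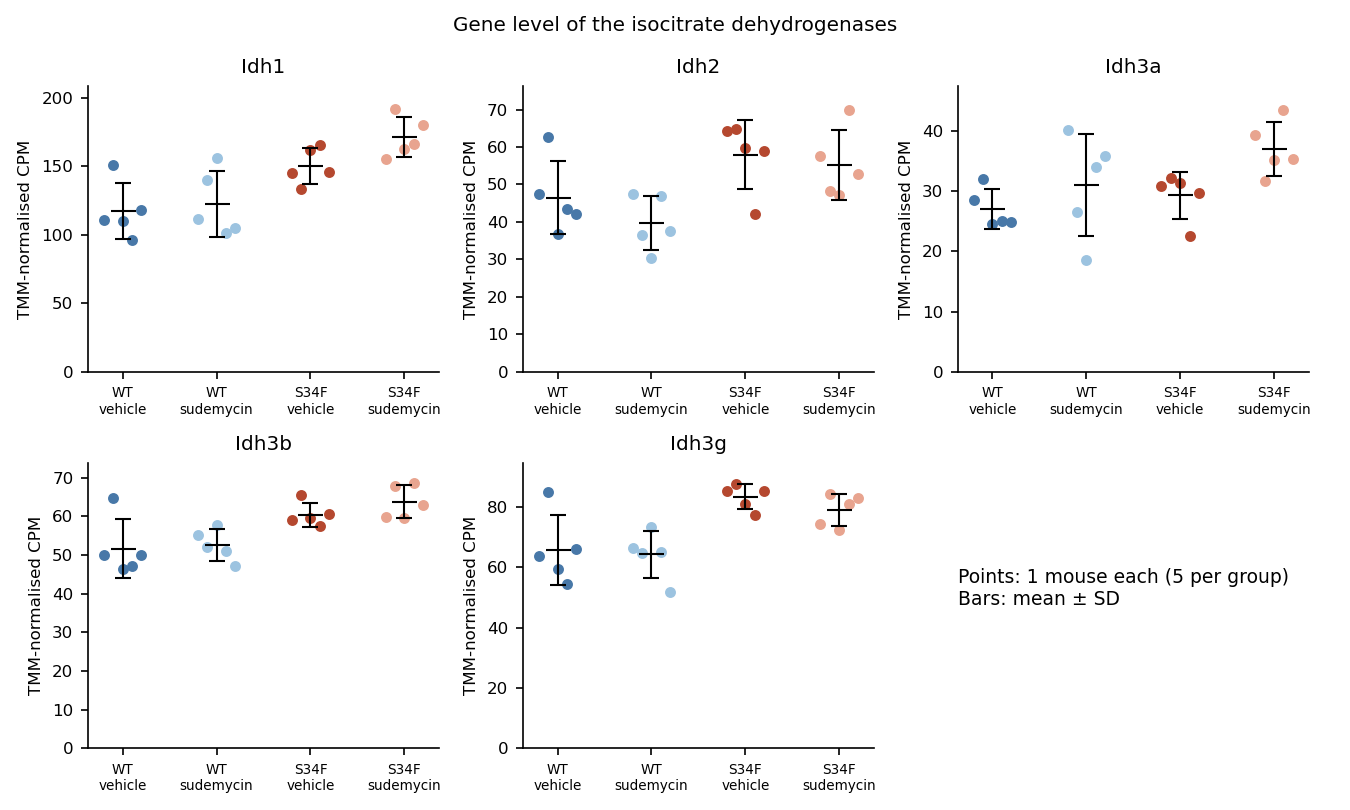
Gene level of each member as TMM-normalised CPM, by group. Points are mice (5 per group) and bars the mean ± SD; the mean of each of the 5 genes is higher in S34F than in WT mice in both treatments, with overlapping ranges except for Idh3b under sudemycin, and one vehicle-treated WT mouse is the highest of its group for all 5 genes.

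Between genotypes under vehicle, Idh1, Idh3b and Idh3g rose in S34F marrow, while Idh2 and Idh3a did not pass. In edgeR's quasi-likelihood test with Benjamini-Hochberg adjustment over all genes, 39.5% of tested genes passed an adjusted p of 10% in this comparison and 19.7% were higher in S34F mice, so 3 of 5 members stands beside a broad shift. Idh1 was at 110.5, 151.0, 110.0, 96.4 and 117.8 CPM in vehicle-treated WT mice and at 145.5, 133.6, 162.0, 165.6 and 146.0 CPM in vehicle-treated S34F mice. Only WT mouse 2 reached into the S34F range. The log2 fold change of Idh1 was 0.35 (SE 0.11, adjusted p = 0.0306). Idh3g was at 63.8, 85.1, 59.4, 54.5 and 66.2 CPM in WT and at 85.2, 87.6, 81.2, 77.2 and 85.5 CPM in S34F mice, again with WT mouse 2 alone inside the S34F range, and its log2 fold change was 0.33 (SE 0.10, adjusted p = 0.0283). X-linked genes as a whole had a median log2 fold change of 0.10 over 498 tested genes against 0.00 over all genes, and the part of sex in the value of Idh3g cannot be told apart. Idh3b had a smaller difference of 0.21 (SE 0.09, adjusted p = 0.0891), which was lost in DESeq2 (adjusted p = 0.101) and in 9 of the 10 fits without 1 mouse. Idh2 gave 0.30 (SE 0.14, adjusted p = 0.120) and Idh3a 0.10 (SE 0.11, adjusted p = 0.491), which was 0.18 without WT mouse 2 or S34F mouse 7. Idh2 passed without WT mouse 2 (adjusted p = 0.0120) or without S34F mouse 7 (adjusted p = 0.0355).

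Under sudemycin, S34F marrow had higher Idh1, Idh2, Idh3b and Idh3g than WT marrow, 4 of 5 members where 36.8% of genes were called and 17.2% were higher. Idh1 was at 111.5, 140.0, 155.8, 101.1 and 104.9 CPM in WT and at 155.6, 192.1, 163.0, 166.2 and 180.1 CPM in S34F mice. The groups touched at about 156 CPM, and the log2 fold change was 0.48 (SE 0.12, adjusted p = 0.0109 in edgeR). Idh3b was at 55.04, 52.1, 57.8, 51.1 and 47.1 CPM in WT and at 59.8, 67.7, 59.6, 68.5 and 63.0 CPM in S34F mice, without overlap, with a log2 fold change of 0.27 (SE 0.07, adjusted p = 0.0147). Mitochondrial Idh2 was 0.47 higher (SE 0.14, adjusted p = 0.0270) and Idh3g 0.29 higher (SE 0.09, adjusted p = 0.0290), where X-linked genes had a median of 0.14 over 483 tested genes. The catalytic Idh3a, at 0.25 (SE 0.18, adjusted p = 0.322), did not pass, and gave 0.12 without sudemycin-treated WT mouse 9 and 0.36 without WT mouse 6.

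Sudemycin itself moved little at the gene level. In WT mice none of the 5 members was called, in edgeR or DESeq2, and none had an unadjusted p under 0.05 in either, in a comparison with 3.07% of genes called and 1.18% called higher. Log2 fold changes there ran from -0.24 for Idh2 to 0.18 for Idh3a. The gene level of Idh3g differed by -0.05 (SE 0.12, adjusted p = 0.916), beside the -24.1 points in Ψ of its exon. In S34F mice Idh3a rose by 0.33 (SE 0.10, adjusted p = 0.0799 in edgeR), where 10.8% of genes were called and 4.94% were higher. Idh3a was at 30.8, 32.2, 31.4, 22.5 and 29.7 CPM in vehicle-treated and at 39.3, 31.7, 35.2, 43.5 and 35.3 CPM in sudemycin-treated S34F mice. Only the sudemycin-treated mouse at 31.7 CPM was within the vehicle range. This call was lost with all 20 mice in one model (adjusted p = 0.275) and in 6 of the 10 fits without 1 mouse, namely those without vehicle-treated mouse 1 or 11 or sudemycin-treated mouse 2, 9, 10 or 12, where adjusted p reached 0.174. Idh1 at 0.18 (SE 0.08, adjusted p = 0.192), Idh3b at 0.07, Idh2 at -0.07 and Idh3g at -0.08 did not pass.

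**Figure D5:**
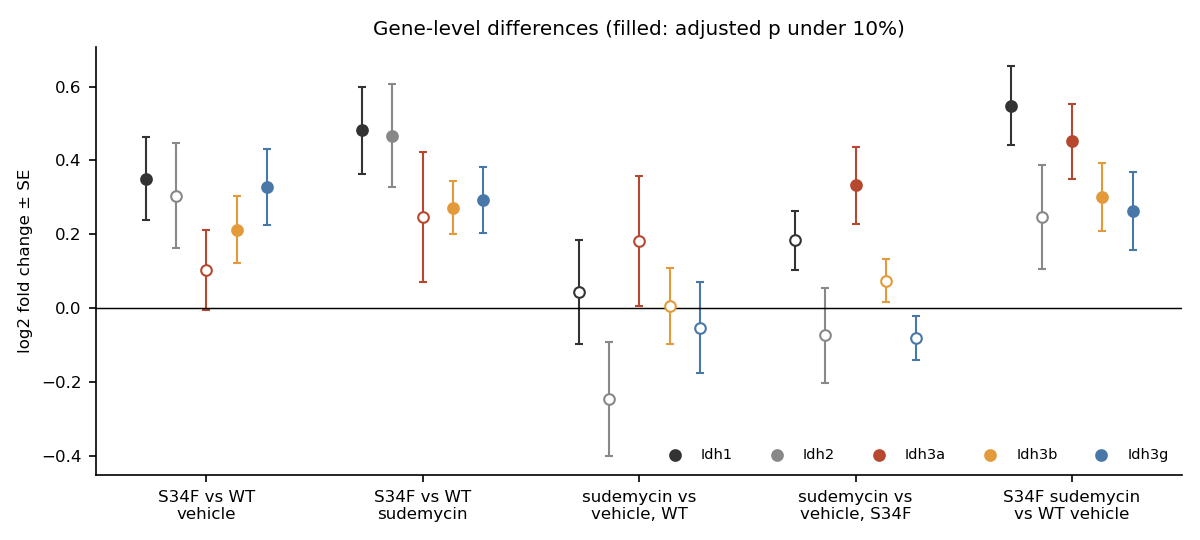
Gene-level log2 fold change (± SE, edgeR) of each member in the 5 comparisons; filled points have an adjusted p under 10% and n is 5 mice per group. All 5 members lie above 0 in the genotype comparisons and with both factors, and only Idh3a is filled for the drug alone.

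With both factors, sudemycin-treated S34F mice had higher Idh1, Idh3a, Idh3b and Idh3g than vehicle-treated WT mice, where 50.2% of genes were called and 25.1% were higher. Idh1 did not overlap between these groups and had the largest log2 fold change of the members, 0.55 (SE 0.11, adjusted p = 0.0014 in edgeR). Idh3a followed with 0.45 (SE 0.10, adjusted p = 0.0034), Idh3b with 0.30 (SE 0.09, adjusted p = 0.0185) and Idh3g with 0.26 (SE 0.10, adjusted p = 0.0577), a call lost in 5 of the 10 fits without 1 mouse (WT mouse 1, 3 or 4, or S34F mouse 6 or 12, adjusted p up to 0.144). Idh2 gave 0.25 (adjusted p = 0.173), with 0.38 and a pass without WT mouse 2 (adjusted p = 0.0133) and 0.15 without S34F mouse 10. This comparison shares its groups with those above, so the values are not separate evidence. No member passed the test of the interaction in edgeR, with log2 values from -0.04 for Idh3g to 0.16 for Idh2, none with an unadjusted p under 0.05 in edgeR or DESeq2, and 0.013% of all genes called.

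The other enzymes of the citric acid cycle and of the pyruvate dehydrogenase step that feeds it, 19 genes, were mostly higher in S34F marrow. Under vehicle 11 rose, 1 fell and 7 did not pass (median log2 fold change 0.26, against 0.00 over all genes), where 19.7% of all genes were called higher. Under sudemycin 13 rose, none fell and 6 did not pass (median 0.28 against -0.03), where 17.2% of all genes were called higher. Under vehicle the succinate dehydrogenase subunit Sdhd rose by 0.41 (adjusted p = 0.0018 in edgeR), the succinyl-CoA ligase subunit Suclg1 by 0.38 (adjusted p = 0.0124) and the pyruvate dehydrogenase subunit Pdha1 by 0.31 (adjusted p = 0.0116). Under sudemycin fumarase, Fh1, was 0.57 higher in S34F mice (adjusted p = 0.0031 in edgeR) and Suclg2 0.49 higher (adjusted p = 0.0513). Under sudemycin none of the 19 was called in WT mice in edgeR or DESeq2 (1 with an unadjusted p under 0.05 in each), beside 3.07% of all genes called in edgeR. In S34F mice 2 rose under sudemycin, among them the dehydrogenase subunit Dld by 0.23 (adjusted p = 0.0621 in edgeR). There 10.8% of all genes were called and 4.94% were higher. With both factors 13 of the 19 rose and none fell (median 0.32), beside 25.1% of all genes called higher.

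Of 9 genes that make NADPH or handle citrate and malate, 2 were higher in S34F than in WT mice under vehicle. This stood beside 19.7% of all genes called higher. Between genotypes under sudemycin, 3 were higher and 1 lower in S34F mice, beside 36.8% of all genes called. In both comparisons the list thus stood near the background. The malic enzyme Me2 was higher in S34F mice in both (0.35 with adjusted p = 0.0333 and 0.47 with adjusted p = 9.62e-04 in edgeR), as was the malate dehydrogenase Mdh1 (0.33 with adjusted p = 0.0646 and 0.32 with adjusted p = 0.0078). The citrate carrier Slc25a1 was lower in S34F mice under sudemycin (-0.30, adjusted p = 0.0457). Against vehicle, Nnt, the mitochondrial transhydrogenase, fell under sudemycin by 0.41 in WT mice on the log2 scale (adjusted p = 0.0143 in edgeR). It fell by 0.32 in S34F mice (adjusted p = 0.0162 in edgeR), the only one of the 9 that fell in each. Me2 rose under sudemycin against vehicle by 0.23 in S34F mice (adjusted p = 0.0291 in edgeR). The drug comparisons called 3.07% of all genes in WT and 10.8% in S34F mice. With both factors 4 of the 9 rose and 1 fell, beside 50.2% of all genes called.

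Of 12 genes that use or turn over alpha-ketoglutarate or hydroxyglutarate, 2 rose and 4 fell in S34F marrow in each treatment (medians -0.07 under vehicle and -0.01 under sudemycin), beside 39.5% and 36.8% of all genes called, and nothing particular to the list is read from these counts. The histone demethylase Kdm6b was 1.57 lower in S34F than in WT mice under vehicle (adjusted p = 0.0025 in edgeR) and 1.15 lower under sudemycin (adjusted p = 8.73e-04). Tet3, a DNA dioxygenase, fell by 0.77 (adjusted p = 5.17e-04) and by 0.50 (adjusted p = 0.0034). D2hgdh, which oxidises D-hydroxyglutarate, was 0.38 lower in S34F than in WT mice under sudemycin (adjusted p = 0.0320 in edgeR). Against vehicle, Tet1 fell under sudemycin by 0.86 in WT (adjusted p = 0.0501 in edgeR) and by 0.60 in S34F mice (adjusted p = 0.0449). Tet2 rose under sudemycin against vehicle by 0.27 in S34F mice (adjusted p = 0.0461 in edgeR). The drug comparisons called 3.07% of all genes in WT and 10.8% in S34F mice. With both factors 3 of the 12 rose and 4 fell, beside 50.2% of all genes called. None of the 3 lists had a gene called for the interaction in edgeR or DESeq2, and 0, 1 and 2 of their genes had an unadjusted p under 0.05 in both tools.

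Over the 20 mice the gene levels of Idh3b and Idh3g went together (Pearson's r of log2 CPM 0.919), as did Idh1 with Idh3b (0.841) and Idh1 with Idh3g (0.80), while Idh3a was nearly unrelated to Idh1 (0.111) and Idh3g (0.187) and nearer to Idh2 (0.648). These are descriptions over mice that share their groups and libraries, given with no test. Of 8389 genes with a mean of at least 10 CPM, those most like Idh1 were Stom (0.958), Igbp1 (0.957) and Cox6b1 (0.953). Those most like Idh2 were Umps (0.952), Trap1 (0.951) and Pebp1 (0.947), and those most like Idh3a were Pa2g4 (0.958), Hspd1 (0.948) and Hspa9 (0.943). Idh3b was closest to the respiratory chain gene Ndufa10 (0.972), then Acaa2 (0.962) and Rps28 (0.956), and Idh3g to the ribosomal protein genes Rpl7a (0.965), Rps19 (0.964) and Rps3 (0.963), a family whose many processed copies make single counts uncertain.

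Of 63102 cassette events with at least 20 reads in every mouse, the 3 whose Ψ was most like that of the Idh3g exon were a 15 bp exon of Abi1 (chr2:22818734-22818748, r = 0.909), a 44 bp exon of AB124611 (chr9:21344286-21344329, r = 0.891) and a 106 bp exon of Mknk1 (chr4:115527507-115527612, r = 0.886), over the same 20 mice. Mean Ψ of the Abi1 exon was 23.6% in vehicle-treated WT, 15.9% in vehicle-treated S34F, 11.7% in sudemycin-treated WT and 8.96% in sudemycin-treated S34F mice. In that order of groups the AB124611 exon had 71.5, 57.9, 41.4 and 32.0% and the Mknk1 exon 8.0, 3.87, 2.82 and 1.47%. All 3 kept the order of groups seen for the Idh3g exon, which their selection by likeness brings with it.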

How the data were processed

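RNA of bulk bone marrow was depleted of ribosomal RNA and made into stranded libraries. Reads were aligned to mm9 (NCBI build 37), and the submitters' processing notes name TopHat2 2.0.8, TopHat and SAMtools. The authors deposited raw counts per gene and raw counts per splice junction for each mouse. The program that counted the reads and its strand setting are not given in the sources used here, and retained introns are not measured by junction counts.

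Genes were tested with edgeR 4.0.16 (R 4.3.3, filterByExpr, TMM, robust quasi-likelihood, prior count 2), each comparison on its own 10 mice and the interaction on all 20, with Benjamini-Hochberg adjustment over all tested genes and a threshold of 10%. Standard errors are the log2 fold change over the root of the F statistic. RPKM used the union of annotated exons. Splice events were built from annotated junctions and, within 200 bp, unannotated sites. Their inclusion and skipping counts were tested in edgeR with 1 coefficient per mouse and dispersion set to 0, where an event averaged 10 or more reads a mouse and each isoform 1 or more. The tests were also run on simulated data, in which the changed cassette events had intermediate inclusion. The Idh3b event, with high inclusion, lies outside that setting, so these runs do not bear on its call.

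Members, lists, markers and tests were chosen with earlier results of these data known, and the 12 bp exon has no test. Named were all members, their called events, the 3 genes or exons most alike, and up to 3 called genes per list and comparison with the largest change, of which some are not reported here. DESeq2 1.42.0, limma 3.58.1 on Ψ, other filters, thresholds and fits, and leaving out each mouse were alternatives. P-values measure the spread between these mice, whose donor marrow was pooled.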

Additional observations from a re-analysis of the deposited data

Results flagged for a closer look

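In 32 sets of 5 values (members' CPM and splice shares by group), 7 had a mouse far from its group, where chance alone gives about 1 in 20. Vehicle-treated S34F mouse 7 was low for Idh2, at 42.1 CPM against 59.0 to 64.7 in the other 4, and for Idh3a, at 22.5 CPM against 29.7 to 32.2. Vehicle-treated WT mouse 2 was high for Idh3b, at 64.8 CPM against 46.4 to 50.1. Sudemycin-treated WT mouse 12 had 15.8% of reads on the far acceptor of Idh3b against 0 to 3.22%, and Ψ of the same event was 73.8% against 94.2 to 100%. Sudemycin-treated S34F mouse 6 had 3.47% on the far acceptor against 9.63 to 11.8%, and Ψ of 93.5% against 79.6 to 83.5%. The last 4 values come from 2 mice and the same reads.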

How the results depend on the processing

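The count of members called kept within 1.5 times the reported one in most alternatives (25 of 28 without leaving out a mouse). With a replicate block on mouse numbers it was 5 under vehicle, where Idh2 gave 0.58 (adjusted p = 0.0020 in edgeR) and Idh3a 0.27 (adjusted p = 0.0760). The numbers do not pair the mice: the same number in both genotypes correlated at -0.21 to 0.17 in 3 pairs under vehicle and at -0.27 to 0.53 in 4 pairs under sudemycin, and 1 of 6 and 3 of 8 mice correlated best with their own number. For sudemycin in S34F mice the count was 0 at a threshold of 5% and in one model of all mice. Called splice events were 0 with an estimated dispersion in the genotype comparisons under vehicle, under sudemycin and with both factors, 0 with a replicate block in limma under vehicle and under sudemycin, and 0 with limma and in one model under sudemycin. A minimum of 1 read in all on the minor isoform, chosen after seeing the data, left all event counts as they were. The Idh3g exon gave -11.9 points under vehicle and -24.8 points with both factors when inclusion reads were summed without division, which weights inclusion more by construction. Leaving out 1 mouse, members called ranged over 2 to 4 (vehicle), 4 to 4 (sudemycin), 0 to 0 (drug in WT), 0 to 1 (drug in S34F) and 3 to 5 (both), events over 0 to 1 in both genotype comparisons, 0 to 0 for the drug and 1 to 1 with both, and the Idh3g difference in Ψ over -18.4 to -15.4, -9.26 to -5.10, -26.2 to -22.5, -16.7 to -12.9 and -33.3 to -29.8 points. Signs turned only among uncalled values of the drug in WT mice, where leaving out 1 mouse gave Idh1 -0.0540 to 0.154, Idh3b -0.0304 to 0.102, Idh3g -0.114 to 0.0585 and the Idh3b event -6.19 to 0.351 points. The event calls lost with sudemycin lacked WT mouse 8, 9 or 10 or S34F mouse 2, 9 or 12. Causes were not tested. Depth limits the far acceptor of Idh3b, where 177 to 586 reads per mouse chose between the sites.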
